A study of Gallus gallus with 40 samples.

Results

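Livers of 11-week-old broiler chickens from a high growth (HG) line were set against livers of the same age from a low growth (LG) line. The lines had been selected in opposite directions for body weight at 8 and at 32 weeks of age, and neither received any other treatment in the labels. The comparison rests on the 4 arrays labelled 11 weeks, of 40 arrays in the series. The remaining arrays held the same pair of lines at 1 week and 3 weeks (12 arrays each) and at 5, 7 and 9 weeks (4 arrays each). Every array held a spotted set of chicken cDNAs and received 1 HG and 1 LG liver RNA labelled with different dyes. At 11 weeks HG carried Alexa 555 on replicates 1 and 3 and Alexa 647 on replicates 2 and 4, so each orientation of the dyes occurred on 2 arrays. The design text gives 4 biological replicates of each line at this age.

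The liver makes most plasma proteins of the bird, and in birds it is the main site of fatty acid synthesis. It also clears foreign compounds, converts cholesterol to bile acids, and removes amino acid nitrogen as urate, which is made through the purine pathway. Growth hormone acts on the liver to raise circulating insulin-like growth factor, and thyroid hormones set its metabolic rate. The comparison asks which liver transcripts differ between lines of unlike body weight after the age at which the first selection weight was taken.

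All values below are log2 ratios turned so that a positive number lies on the HG side. This reading takes Alexa 647 as the numerator of the deposited ratio, which is the likely order because Alexa 647 is the red dye and the second channel on these arrays. The numerator is not given in the sources used here. With the opposite numerator every sign in this text would turn, and no size, error or test would change. Whether the ratios had already been turned to HG over LG is not given either, and that reading would change sizes and tests. Read that way, 2916 probes passed the threshold used below, in place of 35. Of 24 called probes followed through the settings, 2 then kept their call, 10 lost it and 12 turned sign.

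Between 10554 and 13434 spots had a value on an 11 week array. The deposited log2 ratios, before turning, correlated across probes at 0.618 (replicates 1 and 3) and 0.586 (replicates 2 and 4) within an orientation. Between arrays of opposite orientation they correlated at 0.166 to 0.349. Turning reverses the sign of these last values, so across probes the turned ratios of opposite orientation ran against each other. A probe-specific dye effect was therefore fitted. In the first model this effect was shared by all ages. Fitted separately at each age, the dye effects of 11 weeks correlated across probes at 0.735 with those of 9 weeks but at -0.084 to 0.223 with those of the other ages. Those of 1 and 3 weeks correlated at 0.760 and those of 5 and 7 weeks at 0.621. The remaining pairs of ages lay between -0.178 and 0.478. If the ratios had already been turned, the term called dye effect here would hold the line difference. Calls from both models are given, the shared dye effect first and then 1 dye effect per age. Because the design is balanced, both models give the same difference for a probe valued on all 4 arrays, and only its standard error (SE) moves. The median SE of the 11 week difference was 0.118 with the shared dye effect and 0.0784 with 1 dye effect per age.

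With the shared dye effect, 35 of 10774 probes differed between the lines at 11 weeks at an adjusted p under 0.05 in limma (0.325%), 16 on the HG side and 19 on the LG side. Their folds ran from 1.30 to 9.50. At an unadjusted p under 0.05 there were 506 probes, a share below 0.05 of those tested, and 1378 in the model with 1 dye effect per age. With 1 dye effect per age 242 probes passed (2.25%), 95 on the HG side and 147 on the LG side, and these included all 35. Of the 242, 160 had the same sign on all their arrays, against 33 of the 35. Of the 242, 35 kept the call of that model without each of the 4 arrays, a set that differs in part from the first 35. Counted as genes, of 4745 tested, 5 were called on the HG side (0.105%) and 13 on the LG side (0.274%) with the shared dye effect. The gene counts with 1 dye effect per age were 54 on the HG side (1.14%) and 86 on the LG side (1.81%). These shares are the background against which the counts of list members below are read. For probes called only in the model with 1 dye effect per age, and for ORM1 and GHR, the SE below is that of this model, as is the adjusted p where no model is named.

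MED27, a subunit of the Mediator complex that links transcription factors to RNA polymerase, was the named gene furthest to the HG side. Its turned log2 ratio was 1.83, 0.89, 1.66 and 1.13 on replicates 1 to 4. All 4 arrays lay on the HG side, and the arrays with HG on Alexa 555 were the higher pair. The fitted difference was 1.38 ± 0.20 (SE, n = 4 arrays), a 2.60-fold difference (adjusted p = 7.29e-05, and 6.24e-08 with 1 dye effect per age). This gene kept its call in both models whichever array was left out.

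GPT2, the mitochondrial alanine aminotransferase that moves amino groups between alanine and glutamate, stood at 1.08, 2.03, 0.94 and 0.73 on replicates 1 to 4. Replicate 2 was the highest array and all 4 were positive. The fitted difference was 1.19 ± 0.23 (SE, n = 4), or 2.29-fold (adjusted p = 0.00833). The call ended without replicate 1 or without replicate 2 under the shared dye effect, and held without each array with 1 dye effect per age.

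The other 3 genes called on the HG side were smaller. SERPINF1, a secreted serpin also known as pigment epithelium-derived factor, measured 0.78, 0.43, 0.25 and 0.92 on replicates 1 to 4. Its fitted difference was 0.59 ± 0.14 (SE, n = 4, adjusted p = 0.0463), and its 5 other probes also lay on the HG side, at 0.20 to 0.55. None of the 5 passed with the shared dye effect, and 1 of them, at 0.45, passed with 1 dye effect per age. That probe read -0.11, 0.88, -0.60 and 1.63 on replicates 1 to 4, so the orientations of the dyes lay on opposite sides of 0. The arrays of the probe at 0.28 parted in the same way. The probes at 0.55 and 0.38 were positive on all 4 arrays. TF, transferrin, the iron carrier of plasma, measured 0.31, 0.32, 0.44 and 0.83, with replicate 4 the highest and a fitted difference of 0.47 ± 0.11 (SE, n = 4, adjusted p = 0.0463). With the shared dye effect TF lost its call without each of the 4 arrays, at adjusted p-values up to 0.851, and with the near-identical arrays of 3 weeks kept in the fit. Its other probes read 0.36 and -0.02 and did not pass. COQ10B, a mitochondrial protein that binds coenzyme Q, was positive on 3 of 4 arrays, with -0.11 on replicate 1 and 0.84, 0.48 and 0.73 on replicates 2 to 4. The fitted difference was 0.48 ± 0.11 (SE, n = 4, adjusted p = 0.0225), while a second probe read -0.06.

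On the LG side the named gene with the largest difference was SULT, a sulfotransferase that conjugates sulfate to small molecules. Its ratio was -1.04, -1.80, -0.56 and -3.68 on replicates 1 to 4. Every array was on the LG side, and replicate 4 lay far below the other arrays. The fitted difference was -1.77 ± 0.31 (SE, n = 4), 3.41-fold (adjusted p = 0.00237). Without replicate 4 the value was -1.15 and the adjusted p 0.22 with the shared dye effect. The call held without each array, at -2.24 to -1.30, when the dye effect was fitted per age.

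Other enzymes of small-molecule metabolism followed. AKR1D1, the reductase that acts on steroid hormones and bile acid precursors, measured -0.36, -0.63, -0.42 and -1.21 on replicates 1 to 4. The fitted difference was -0.65 ± 0.14 (SE, n = 4, adjusted p = 0.0173). AKR1D1 was the only called gene among 10 measured bile acid genes in either model. Over all genes the LG side share was 0.274% with the shared dye effect and 1.81% with 1 dye effect per age. ADH4, an alcohol dehydrogenase that also oxidises retinol, was called by 2 of its 3 probes. One measured -0.51, -1.02, -0.62 and -0.95, for a difference of -0.78 ± 0.11 (SE, n = 4, adjusted p = 0.00237). The other called probe gave -0.56 ± 0.10 (SE, n = 4, adjusted p = 0.00414). The third probe lay at -0.15 and did not pass, and its 4 arrays were all negative too, between -0.05 and -0.22.

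ATIC, the enzyme of the last steps of purine synthesis, lay on the LG side at -0.82, -0.52, -1.04 and -0.58 on replicates 1 to 4. The fitted difference was -0.74 ± 0.15 (SE, n = 4, adjusted p = 0.0144). A second probe gave -0.81 ± 0.17 (SE, n = 4) and passed with 1 dye effect per age (adjusted p = 0.00697) but not with the shared one (adjusted p = 0.314). ATIC was the only called gene of 13 measured genes of purine synthesis in either model, and the median of that list was -0.03. The LG side shares over all genes were 0.274% with the shared dye effect and 1.81% with 1 dye effect per age.

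SELENOI, which makes phosphatidylethanolamine, was the most even of the called genes across arrays, at -0.87, -1.05, -0.90 and -0.76 on replicates 1 to 4. Its fitted difference was -0.90 ± 0.17 (SE, n = 4, adjusted p = 0.0118). A second SELENOI probe was negative on all 4 arrays and read -0.23 ± 0.29, which did not pass. OSBP2, a protein that binds oxysterols, measured -0.49, -0.63, -0.57 and -1.04, for a difference of -0.68 ± 0.09 (SE, n = 4, adjusted p = 0.00237).

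CHIA, acidic chitinase, an enzyme best known from the glandular stomach, was the named gene with the next largest difference on the LG side. Its ratios were -1.15, -1.75, -0.24 and -2.09 on replicates 1 to 4. All arrays were on the LG side and replicate 3 was the nearest to 0. The difference was -1.31 ± 0.15 (SE, n = 4), 2.47-fold (adjusted p = 0.0031), and it kept its call without each array in both models. CHIA stands in the list of markers of organs next to the liver. None of the other markers among the 6 measured was called in either model, and their values ran from -0.14 for ACTA1 to 0.09 for TNNT3. The part of neighbouring tissue in the CHIA value was not tested.

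The other 6 genes called on the LG side have unlike roles. MCU, the pore of the mitochondrial calcium uniporter, measured -0.63, -0.17, -0.77 and -0.55, for a difference of -0.53 ± 0.09 (SE, n = 4, adjusted p = 0.00216). PSMB5, a catalytic subunit of the proteasome, gave -0.54 ± 0.11 (SE, n = 4, adjusted p = 0.0342), but its second probe, valued on 3 arrays, read 0.00. ARID1A, a subunit of SWI/SNF chromatin remodelling complexes, gave -0.55 ± 0.11 (SE, n = 4, adjusted p = 0.0303). MBD2, which binds methylated DNA, gave -0.44 ± 0.08 (SE, n = 4, adjusted p = 0.00453), with a second probe at 0.03. FBXL17, an adaptor of ubiquitin ligases, gave -0.38 ± 0.08 (SE, n = 4, adjusted p = 0.0116). DIAPH2, a formin that nucleates actin, gave -0.38 ± 0.09 (SE, n = 4, adjusted p = 0.0342). On each of these 6 probes all 4 arrays were negative.

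**Figure D1:**
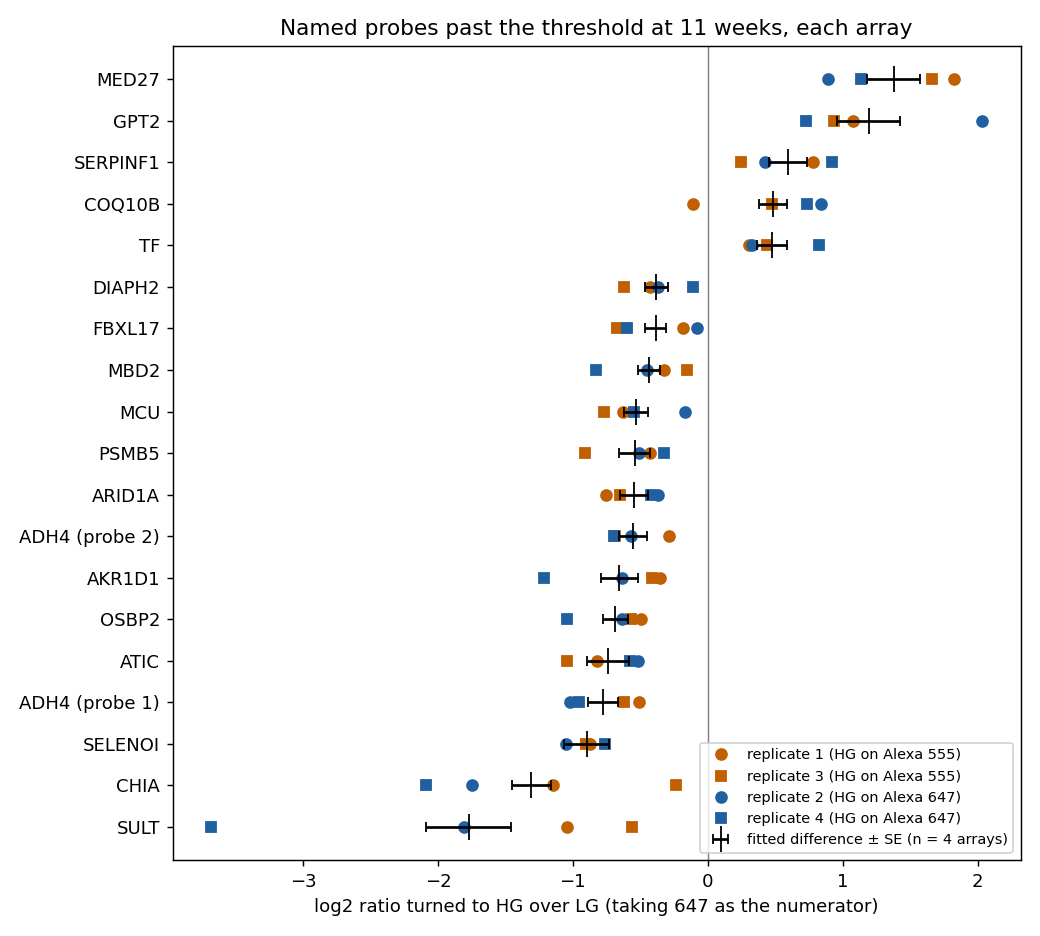
Turned log2 ratio of each 11 week array (points, coloured by the dye HG carried) and fitted difference ± SE (black) for the 19 named probes past the threshold with the shared dye effect. COQ10B is the only probe with an array on the other side of 0, and SULT spreads most widely, with replicate 4 at -3.68.

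Single arrays weighed on these calls. With the shared dye effect 2 of the 19 named probes, for MED27 and CHIA, kept the call without each array in turn, and leaving out replicate 4 ended 14 calls. With 1 dye effect per age 15 of the 19 kept it, and the exceptions were SERPINF1, TF, COQ10B and FBXL17. The fit of the 11 week arrays alone tested 10774 probes and called 8, of which 6 were also called with the shared dye effect. It was followed for these 19 probes and the 5 clones described next. Of these 24 it kept 5, namely MED27, ATIC, SELENOI, 1 of the ADH4 probes and clone 22.3.9. Clone 25.13.5, outside the 24, was also called in both fits (adjusted p = 0.0148 from the 11 week arrays alone). GPT2 had an adjusted p of 0.121 there. Equal weights for all arrays ended the calls of AKR1D1, ARID1A, ATIC, PSMB5, SELENOI and SERPINF1.

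The 4 probes furthest to the HG side had no gene symbol. The clone at grid position 47.14.10 measured 3.39, 1.94, 3.38 and 4.28 on replicates 1 to 4, for a difference of 3.25 ± 0.40 (SE, n = 4), 9.50-fold (adjusted p = 1.08e-05). Clones 46.8.10, 44.7.15 and 22.3.9 followed at 2.87, 2.64 and 2.09. Clones 47.14.10, 46.8.10 and 44.7.15 shared an order of arrays, with replicate 4 highest and replicate 2 lowest. Clone 1.19.6, at 1.29, and clone 22.3.9 had the smallest adjusted p-values of all probes, 8.16e-09 and 1.04e-08. All 5 of these clones kept their call without each array in both models. In all, 16 of the 35 called probes had no symbol, and none of them can be given a role here.

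Of 36 measured genes of amino acid and urate metabolism, GPT2 was the only one called with the shared dye effect, against 0.105% of all genes on the HG side. When the dye effect was fitted per age, OAT and IVD joined it on the HG side, for 3 genes against 1.14% of all genes. QDPR and DPYS were called on the LG side, 2 genes against 1.81%. OAT, which feeds ornithine into proline and glutamate synthesis, measured 0.11, 1.22, -0.31 and 2.13 on replicates 1 to 4. Both arrays with HG on Alexa 647 were higher than both with HG on Alexa 555, and the difference was 0.79 ± 0.11 (SE, n = 4, adjusted p = 1.51e-04). With the shared dye effect the difference was the same, with an SE of 0.20 and an adjusted p of 0.106, so the call depends on the model. QDPR, which regenerates the cofactor of aromatic amino acid hydroxylases, was negative on every array at -0.52, -1.06, -0.48 and -0.66. Its difference was -0.68 ± 0.09 (SE, n = 4, adjusted p = 0.00159), with 0.0525 under the shared dye effect and a second probe at 0.01. IVD, of leucine breakdown, measured 0.09, 0.69, -0.06 and 0.78, for a difference of 0.38 ± 0.06 (SE, n = 4, adjusted p = 0.00241, and 0.0901 with the shared dye effect). DPYS, of pyrimidine breakdown, measured -0.17, -1.02, -0.27 and -0.92, for a difference of -0.60 ± 0.16 (SE, n = 4, adjusted p = 0.0374, and 0.583 with the shared dye effect). For both genes, as for OAT, the arrays parted by the orientation of the dyes.

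Fatty acid oxidation was the list with most calls on the LG side in the model with 1 dye effect per age. There 4 of 18 genes were called on the LG side and 0 on the HG side, against 1.81% of all genes. None was called with the shared dye effect. The list median was -0.07 and 33.3% of its genes were positive, against a median of 0.01 and 53.2% over all genes tested. ACADS, the short-chain acyl-CoA dehydrogenase, measured -0.31, -0.31, -0.60 and -0.33 on replicates 1 to 4, for a difference of -0.39 ± 0.07 (SE, n = 4, adjusted p = 0.0159), and a second probe read -0.31. HADHB, the thiolase subunit of the mitochondrial trifunctional protein, measured -0.19, -0.66, -0.50 and -0.66, for a difference of -0.50 ± 0.09 (SE, n = 4, adjusted p = 0.0188), but its second probe read 0.08. ECI2, an isomerase for unsaturated fatty acids, had a difference of -0.59 ± 0.12 (SE, n = 4, adjusted p = 0.00556) with replicate 4 on the other side at 0.17 and a second probe at 0.14. HSD17B4, of peroxisomal oxidation, lay at -0.28 ± 0.07 (SE, n = 4, adjusted p = 0.0184), with replicate 3 at 0.07. None of the 4 kept the call without each array in turn.

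Genes of lipid synthesis and transport showed few calls. Of 16 measured lipogenic genes none was called with the shared dye effect. FADS2, a desaturase of polyunsaturated fatty acids, was the only one called with 1 dye effect per age, against 1.14% of all genes. Its difference was 0.56 ± 0.15 (SE, n = 4, adjusted p = 0.0443). Its 3 other probes lay between 0.17 and 0.49 and did not pass. FASN, fatty acid synthase, read -0.04 and -0.21 on its probes. THRSP, a lipogenic factor induced by thyroid hormone, read -0.61 and -0.16 and did not pass. FABP1, a fatty acid binding protein of liver, measured 0.52, 0.22, 1.18 and 1.84 on replicates 1 to 4. All were on the HG side, and the difference of 0.94 ± 0.23 (SE, n = 4) passed with 1 dye effect per age (adjusted p = 0.0215) and not with the shared one (adjusted p = 0.495). LBFABP, a related liver fatty acid binding protein, lay at -0.35 and did not pass in either model. The difference between these related genes was not tested.

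The measured acute phase and haemostasis genes lay mostly on the HG side. The 20 acute phase genes had a median of 0.15 with 15 positive, and the 14 haemostasis genes a median of 0.14 with 10 positive. Over all genes tested the median was 0.01 and 53.2% were positive. With 1 dye effect per age TF and CEBPB, a transcription factor of the acute phase response, were called on the HG side. TTR, a plasma protein that binds thyroxine, was called in that model on the LG side. The shares over all genes were 1.14% and 1.81%. No haemostasis gene was called in either model. CEBPB lay at 0.34 ± 0.09 (SE, n = 4, adjusted p = 0.0421), but a second CEBPB probe read -0.41. TTR measured -0.66, -0.21, -0.22 and -0.37, for a difference of -0.36 ± 0.09 (SE, n = 4, adjusted p = 0.0226). Its second probe read -0.38 and did not pass in either model (adjusted p = 0.42 with 1 dye effect per age). The arrays of that probe read -0.84, 0.02, -0.86 and 0.16, so the orientations of the dyes lay on opposite sides of 0. ORM1, an acute phase glycoprotein, read 0.19, 0.98, -0.15 and 2.96. Replicate 4 was far above the other arrays, and the difference of 1.00 ± 0.28 missed the threshold (adjusted p = 0.0551 with 1 dye effect per age and 0.712 with the shared one).

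Among 13 complement genes, C4 and C8A were called on the HG side with 1 dye effect per age, against 1.14% of all genes. C4 measured 0.63, 0.53, 0.05 and 0.96 and C8A 0.54, 0.26, 0.35 and 1.19 on replicates 1 to 4. All arrays were positive for both. Their differences were 0.54 ± 0.12 (adjusted p = 0.0166) and 0.59 ± 0.15 (adjusted p = 0.0342), with n = 4 each. A second C4 probe read 0.17, and the list as a whole had a median of -0.08. VNN2, a pantetheinase in the look-up set, also lay on the HG side at 0.84 ± 0.21 (SE, n = 4, adjusted p = 0.0236) and was positive on all 4 arrays, the lowest at 0.52.

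The growth hormone, IGF and thyroid list held 14 measured genes, with a median of 0.06, and none was called with the shared dye effect. With 1 dye effect per age THRB was called on the HG side and TTR, described above, on the LG side, against 1.14% and 1.81% of all genes. The array carries no probe for IGF1. GHR, the growth hormone receptor, measured 0.67, -0.31, 0.44 and -0.02 on replicates 1 to 4. The 2 orientations of the dyes fell on opposite sides of 0, and the difference of 0.19 ± 0.07 did not pass (adjusted p = 0.185 with 1 dye effect per age). THRB, a thyroid hormone receptor, was even across arrays at 0.21, 0.34, 0.19 and 0.21. Its difference was 0.24 ± 0.07 (SE, n = 4), with an adjusted p of 0.0471 with 1 dye effect per age and 0.756 with the shared one. It lost the call without each of the arrays.

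Other genes called with 1 dye effect per age and not with the shared one included GFRA2, MAU2, HSPD1 and HSPA8. With equal weights for all arrays the shared dye effect also called MAU2 (adjusted p = 0.0162). GFRA2, a receptor subunit for neurotrophic factors, measured 1.05, 0.31, 0.88 and 0.18, for a difference of 0.60 ± 0.10 (SE, n = 4, adjusted p = 8.01e-04). MAU2, which helps to load cohesin on chromosomes, lay at -0.31 ± 0.05 (SE, n = 4, adjusted p = 7.73e-04), with a second probe at 0.03. These 2, OAT and QDPR were the named genes outside the 18 above that kept the call without each array. HSPD1, the mitochondrial chaperonin, lay at 0.57 ± 0.13 (SE, n = 4, adjusted p = 0.0101), with a second probe at -0.26, and HSPA8, a cytosolic chaperone, at -0.52 ± 0.13 (SE, n = 4, adjusted p = 0.0241), with a second probe at -0.60. ABHD4, a lipase of N-acyl phospholipids, lay at -0.38 ± 0.09 (SE, n = 4, adjusted p = 0.0213), and STK39, a kinase that regulates ion cotransport, at 0.30 ± 0.08 (SE, n = 4, adjusted p = 0.0473). SLC40A1, the iron exporter ferroportin, lay at -0.49 ± 0.11 (SE, n = 4, adjusted p = 0.0328), with a second probe at 0.05. Among 27 proteasome genes PSMC3, a subunit of the regulatory particle, was called beside PSMB5 at -0.32 ± 0.07 (SE, n = 4, adjusted p = 0.0319), with a second probe at 0.03. That made 2 genes of the list on the LG side, against 1.81% of all genes. ALDOC, an aldolase of glycolysis, was the only one of 15 glycolytic genes called, against the same 1.81% on the LG side. Its difference was -0.38 ± 0.08 (SE, n = 4, adjusted p = 0.00427). Of 36 xenobiotic genes CYP4B7 and ALDH3A2 joined SULT on the LG side, at -0.30 ± 0.07 (SE, n = 4, adjusted p = 0.0208) and -0.18 ± 0.04 (SE, n = 4, adjusted p = 0.0224). These were 3 genes of the list on the LG side, against 1.81% of all genes. The called ALDH3A2 probe had replicate 2 at 0.01 and an adjusted p of 1 with the shared dye effect, and none of the 3 further ALDH3A2 probes was called in either model (-0.31, -0.16 and -0.01).

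Some lists leaned to one side without a called member. Ribosomal proteins had the lowest median of the 24 pathway lists, -0.10 over 37 genes, with 13.5% positive. Oxidative phosphorylation had a median of -0.06 over 37 genes with 27.0% positive, and the cell cycle -0.04 over 17 genes with 23.5% positive. No gene of these 3 lists was called in either model. Cholesterol synthesis, gluconeogenesis and glycogen, chaperones of the endoplasmic reticulum and the circadian clock had medians between -0.01 and 0.01, also with 0 called.

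**Figure D2:**
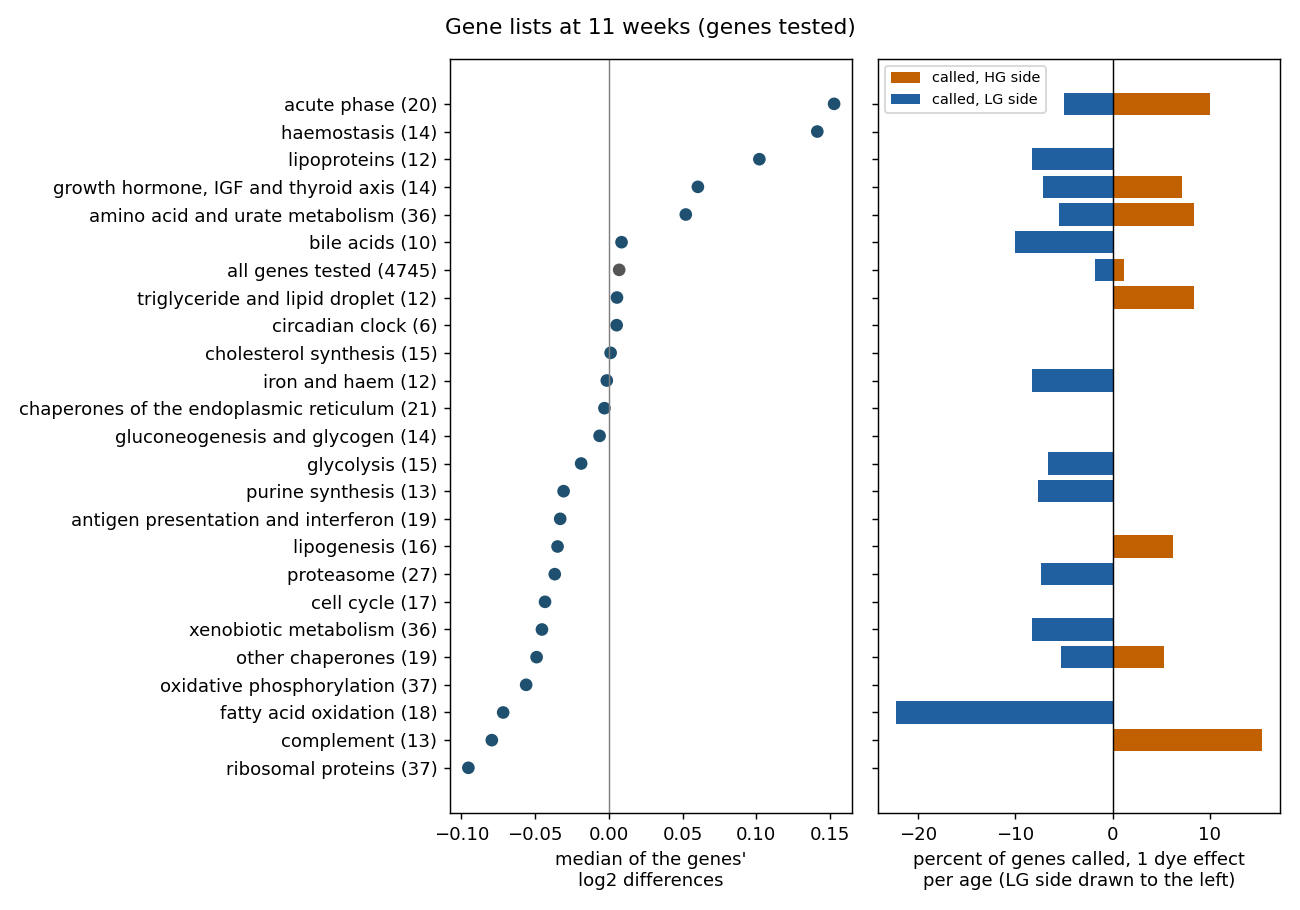
Median log2 difference of each pathway list (left, HG side positive) and percent of its genes called with 1 dye effect per age (right), ordered by the median, with the number of genes tested in brackets. Acute phase and haemostasis have the highest medians, ribosomal proteins the lowest, and fatty acid oxidation the largest share called on the LG side (4 of 18 genes).

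Ratios do not give the level of a transcript, so the tissue label could be checked only by which markers had values. Of the hepatocyte markers 14 genes were measured, and their median was 0.15. FABP1 and TF were called on the HG side and TTR on the LG side with 1 dye effect per age. The shares over all genes were 1.14% and 1.81%. The 9 leukocyte markers ran from -0.13 to 0.33 and the 7 erythroid markers from -0.06 to 0.10 with 0 called in either model. All 4 bile duct markers were positive, at 0.06 to 0.17, with 0 called. Of 22 matrix and vessel markers 1 was called with 1 dye effect per age, against 1.81% of all genes on the LG side. It was the collagen gene COL6A2 at -0.33 ± 0.06 (SE, n = 4, adjusted p = 0.0404), with a second probe at 0.00. In whole liver fewer cells of a type and less RNA per cell cannot be told apart. The part of these markers in the other differences was not tested.

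The differences at 11 weeks were then set against those at younger ages in the same model. The 11 week difference minus the mean of those at 1 and 3 weeks passed for 17 of 6851 probes with the shared dye effect (0.248%), 8 higher and 9 lower at 11 weeks, and for 74 with 1 dye effect per age (1.08%). Some birds of 1 and 3 weeks were hybridised more than once, which by itself makes these p-values smaller. The other tests of these models, that of the 11 week difference included, also draw their gene-wise spread partly from those arrays. MED27 lay at 0.19, 0.18, 0.25, 0.76, 0.60 and 1.38 at 1, 3, 5, 7, 9 and 11 weeks. GPT2 lay at -0.06, 0.05, 0.64, 0.12, 0.24 and 1.19 at the same ages. Neither rose at every step. MED27 and GPT2 were called for this contrast (adjusted p = 0.00404 and 0.0178). SULT passed the same test in the other direction (adjusted p = 0.0162). It stood at -0.24, -0.06 and -0.71 at 1, 3 and 5 weeks, and at -2.32, -2.39 and -1.77 at 7, 9 and 11 weeks. The other named genes called were ADH4, AKR1D1, ATIC, FBXL17, MBD2 and MCU, lower at 11 weeks, and COQ10B, higher.

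**Figure D3:**
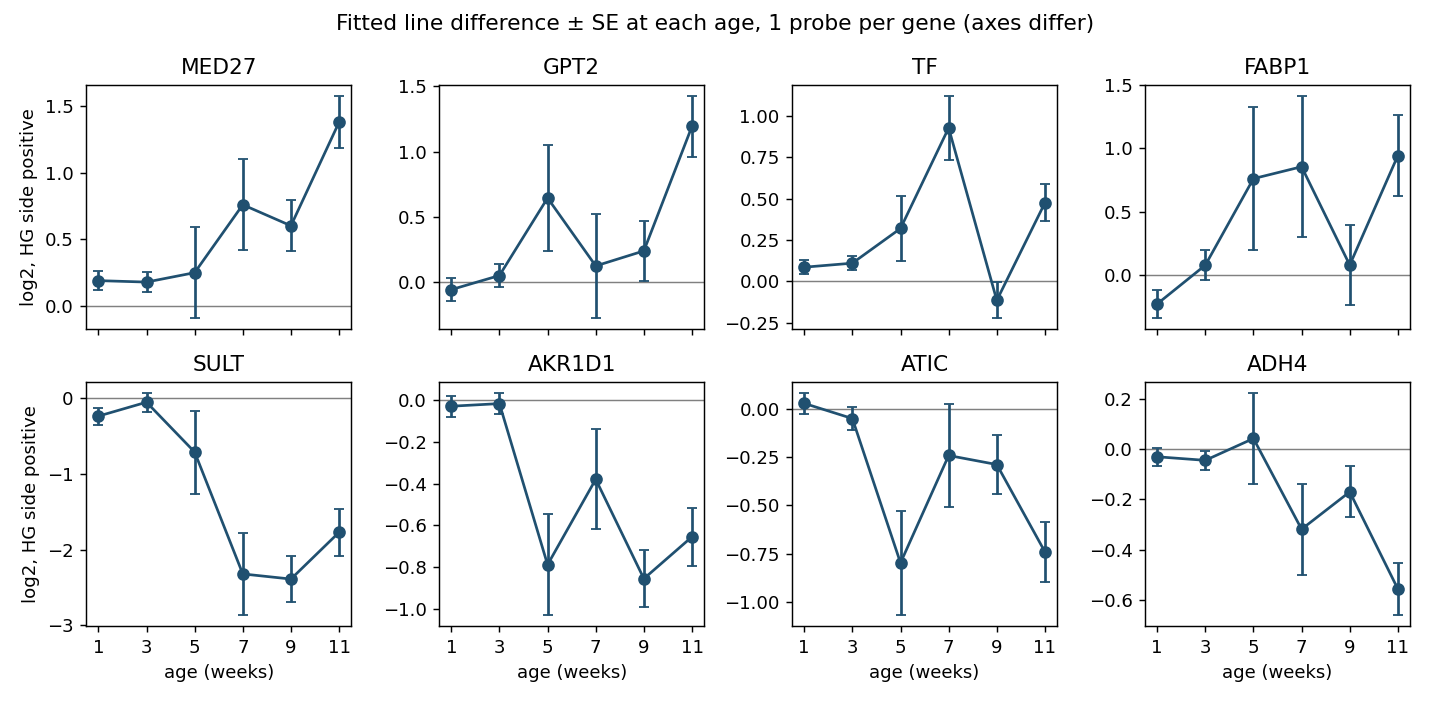
Fitted log2 difference ± SE at each age for 1 probe each of 8 genes, with the shared dye effect and a vertical axis per gene. MED27 and GPT2 are highest at 11 weeks, SULT is lowest at 7 and 9 weeks, and TF crosses 0 at 9 weeks.

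Of the other ages, 9 weeks was the most alike. Across probes the 11 week difference correlated (Pearson) with that at 9 weeks at 0.498, at 7 weeks at 0.430 and at 5 weeks at 0.359. At 3 weeks the value was 0.232 and at 1 week 0.286. By rank (Spearman) the values were 0.453, 0.249, 0.217, -0.037 and 0.158 at 9, 7, 5, 3 and 1 weeks. At 3 weeks 45.8% of all probes had the sign of the 11 week difference, so the ranks there showed no likeness. These correlations across probes have no test, since probes are not independent and the ages share the array design. Of the 35 probes called at 11 weeks, 34 had the same sign at 9 weeks, against 67.3% of all probes. Of the 35, 16 were also among the 99 called there (0.974% of probes). At 7 weeks 32 of 33 called probes with a value had the same sign, and at 5 weeks 30 of 33. At 3 weeks the count was 19 of 24 and at 1 week 18 of 23. The called probes were picked for their 11 week difference, so the share over all probes is not a like comparison.

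The difference between the ages themselves passed for 2 of 10169 probes between 11 and 9 weeks with the shared dye effect (0.0197%) and for 27 with 1 dye effect per age (0.266%), 21 of them higher at 11 weeks. Both of the first were clones without a symbol. Clone 8.11.6 stood at -2.32 at 9 weeks and 0.02 at 11 weeks, and clone 32.11.6 at -0.91 and 0.03. Among named genes, CYP4B7, a cytochrome P450 of fatty acid hydroxylation, turned from 0.41 at 9 weeks to -0.30 at 11 weeks (difference -0.71 ± 0.11, SE, n = 4 arrays per age, adjusted p = 9.30e-04 with 1 dye effect per age). A second CYP4B7 probe moved from 0.29 to -0.27 without passing. AvBD10, an avian defensin, went from 0.48 to -0.42 (adjusted p = 4.79e-04, and 0.509 with the shared dye effect). Its 11 week arrays read -0.93, 0.33, -1.29 and 0.20, so the orientations of the dyes lay on opposite sides of 0, and its second probe stood near -0.11 and -0.13. SCD, the stearoyl-CoA desaturase, was called on the LG side at 9 weeks (-0.76). With 1 dye effect per age it lay at 0.19 at 11 weeks (adjusted p of the difference = 0.0217). With the shared dye effect it lay at 0.21, and the difference did not pass (adjusted p = 0.0792). At 11 weeks SCD had a value on 3 arrays. TF and OAT were each higher at 11 than at 9 weeks (adjusted p = 0.0497 for both with 1 dye effect per age). CYP4B7, AvBD10, SCD, TF and OAT were picked from the 27 after their values were seen. Between 11 and 7 weeks 0 of 9765 probes passed with the shared dye effect (0.00%). There 154 had an unadjusted p under 0.05, a share below 0.05 of those tested. With 1 dye effect per age 1 probe passed (0.0102%). That probe was CP, ceruloplasmin, the copper carrier of plasma, at 1.54 at 7 weeks and 0.29 at 11 weeks (adjusted p = 0.0408). Its 11 week arrays read -0.66, 0.95, -0.91 and 1.79, so the orientations of the dyes lay on opposite sides of 0. The spread between arrays was wider at 7 weeks, where the median SE was 0.207.

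**Figure D4:**
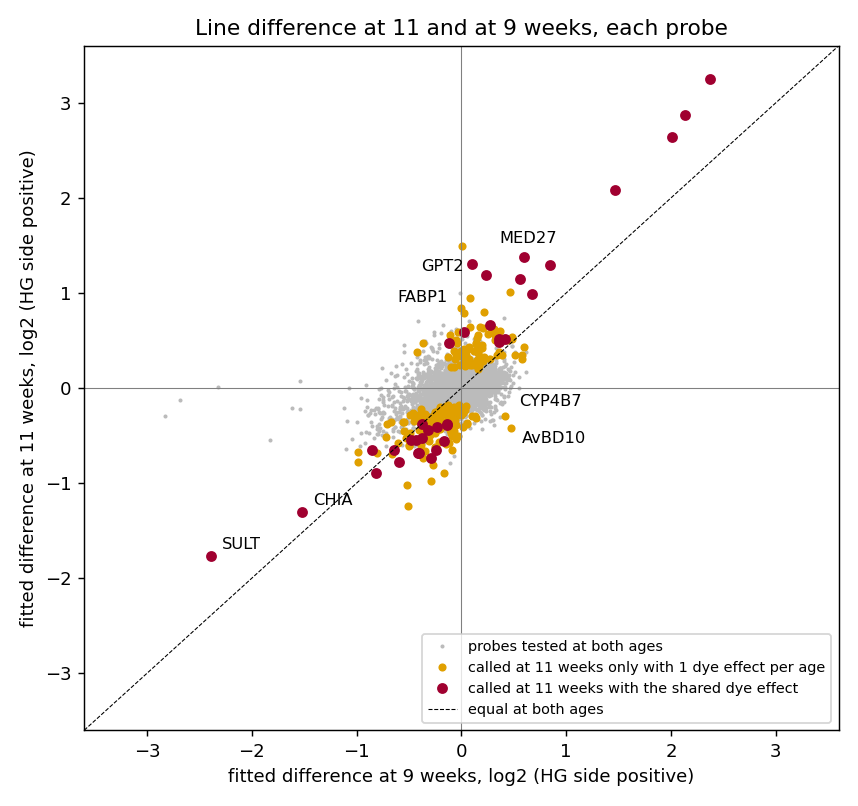
Fitted log2 difference at 11 weeks against that at 9 weeks for each of the 10169 probes tested at both ages, with probes called at 11 weeks coloured by model and the dashed line marking equal differences. SULT, CHIA and the unnamed clones at the upper right keep their side at both ages, GPT2 and FABP1 lie at 1.19 and 0.94 at 11 weeks and at 0.24 and 0.08 at 9 weeks, changes that did not pass, and CYP4B7 and AvBD10 lie on opposite sides at the 2 ages.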

How the data were processed

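The authors deposited 1 table of dye ratios with a value for each spot on each array, linear in scale as its values show. The deposited ratio is taken as already normalized within arrays, because the array medians lie close to 1. Scanner, background correction, normalization method and numerator are not given in the sources used here. Empty spots were left missing. The log2 of the deposited ratio was taken, and the 19200 spots were averaged by accession to 18547 probes. Gene symbols are those of the array's annotation, some of them possibly outdated. Of the 10774 probes tested, 6534 had a symbol and 4240 had none.

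Probes valued on at least 3 of the 4 arrays of 11 weeks were fitted with limma 3.58.1 in R 4.3.3, with a line effect per age, a dye effect and a weight per age (arrayWeights, lmFit, eBayes). P-values were adjusted by Benjamini-Hochberg over all probes of a comparison, and a call is an adjusted p under 0.05. Replicates 3 and 4 of 3 weeks held near-identical values (r = 0.99988) under opposite dye labels, so both were left out and the fit used 38 arrays in place of the planned 40. Replicate numbers did not pair the arrays of 9 and 11 weeks (r of deviations 0.013 and -0.239). The fit was tested on simulated data with independent noise on each array, which does not mimic birds hybridised more than once.

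Named genes are called probes with the same sign on every array, those called in other fits, up to 3 members per list with the smallest p, and a fixed look-up set. COQ10B and MAU2 entered through other fits. Further list members and GFRA2 were named after their values were seen. Members, lists and tests were chosen with earlier results of these data known. A list's value is the mean of a gene's probes, and a gene counts as called if any probe passes. The arrays' number limits the precision. Alternatives covered weights, filters, scaling, centring, the dye effect and single arrays.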

Additional observations from a re-analysis of the deposited data

Results flagged for a closer look

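A difference that changed with age was tested as such and passed for several genes. Between the mean of 1 and 3 weeks and 11 weeks, with the shared dye effect, the log2 difference moved toward the HG side by 1.19 for MED27, 1.20 for GPT2 and 0.49 for COQ10B. For clones 1.19.6, 47.14.10 and 44.7.15 it moved by 1.26, 2.02 and 2.03. It moved toward the LG side for SULT (-1.62), ATIC (-0.73), AKR1D1 (-0.63), ADH4 (-0.52), MBD2 (-0.48), MCU (-0.48) and FBXL17 (-0.37). The same contrast also passed with 1 dye effect per age for FABP1 (1.02), SERPINF1 (0.57), TF (0.38), AvBD10 (-0.47), ALDOC (-0.41), CYP4B7 (-0.33), DIAPH2 (-0.32), HSD17B4 (-0.30) and MAU2 (-0.29).

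Between 9 and 11 weeks clones 8.11.6 and 32.11.6 moved toward the HG side by 2.34 and 0.94 in both models. With 1 dye effect per age SCD (0.95), OAT (0.77) and TF (0.59) also moved that way, and AvBD10 (-0.90) and CYP4B7 (-0.71) moved toward the LG side. Between 7 and 11 weeks CP moved by -1.25, which passed only with 1 dye effect per age.

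For ACADS the value of replicate 3, with the shared dye effect taken off, was -0.60 while the other arrays of 11 weeks lay between -0.33 and -0.31. By chance the test used marks about 1 in 20 such groups, and 61 probes were looked at.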

How the results depend on the processing

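The count of 35 at 11 weeks was 8 from the 11 week arrays alone, 19 where every age needed values on 75% of its arrays, and 242 with 1 dye effect per age (64 there with equal weights). Without single arrays it ran from 10 to 25, and the 242 from 82 to 287. For 11 minus 9 weeks the count of 2 was 5 with equal weights, 6 with the near-identical arrays of 3 weeks kept, 27 with 1 dye effect per age, 0 from the 8 arrays of these ages alone, 0 there with the replicate block (573 with an unadjusted p under 0.05), and 0 to 3 without single arrays. For 11 minus 7 weeks the count of 0 was 24 with equal weights, 1 with arrays scaled to the same spread, 1 with 1 dye effect per age and 0 to 6 without single arrays. For 11 minus the mean of 1 and 3 weeks the count of 17 was 9 with scaled arrays, 74 with 1 dye effect per age and 3 to 8 without single arrays. The causes were not tested. The fits chosen after seeing the data were those with the near-identical arrays, the 8 arrays alone, 1 dye effect per age for the differences between ages, and every other setting tried on the 242.

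Read as already turned to HG over LG, the deposited ratios gave 2916 calls, and signs turned for ACADS (0.069), ALDH3A2 (0.17), ARID1A (0.15), ATIC (0.19), AvBD10 (0.68), DIAPH2 (0.14), ECI2 (0.47), FADS2 (-0.23), FASN (0.046), FBXL17 (0.044), GFRA2 (-0.36), GHR (-0.36), MCU (0.17), MED27 (-0.37), PSMB5 (0.13), SCD (-0.26) and TTR (0.074). They also turned for clones 1.19.6 (-0.27), 47.14.10 (-0.14), 22.3.9 (-0.17), 44.7.15 (-0.071), 46.8.10 (-0.32), 32.11.6 (-0.024) and 8.11.6 (-0.57). Without single arrays CP ran from -0.18 to 0.67, clone 32.11.6 from -0.10 to 0.13 and clone 8.11.6 from -0.37 to 0.41.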
